A study of Drosophila melanogaster and Drosophila simulans with 21 samples.

Results

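The comparison of adult females of Drosophila simulans with adult females of Drosophila melanogaster rests on the 6 of 21 arrays whose channel labels name these parental RNAs and no other. On 3 of them D. melanogaster RNA was in channel 1, and on the other 3 D. simulans RNA was. D. melanogaster was represented by Canton S and D. simulans by Sim-1, with no treatment given for either. Stocks were kept at 25 C and crosses made at 18 C. Virgin females waited 5 to 6 days at room temperature, and they were frozen inside the same 2 hours of the day. Each cross supplied 2 cohorts, but the extractions were combined, so each species is represented by 1 strain and 1 RNA pool. The arrays are therefore technical repeats of the same pair of pools, p-values here measure only array spread, and a species difference, a strain difference and a difference between the pools cannot be told apart. Of the remaining arrays, 12 pair a parent with their hybrid daughters (Canton S mothers, Sim-1 fathers) and 3 carry the same RNA in either channel.

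D. melanogaster and D. simulans are sibling species that are nearly alike in form. Their females differ in the hydrocarbons of the cuticle and in courtship preferences. A spotted cDNA array measures, for each gene, the ratio between the amounts of 2 labelled cDNAs that bind to the same spot. In RNA of whole females the ovary, the fat body, the gut and the muscles supply much of the transcript pool, and in such bulk RNA fewer cells of a type and less RNA per cell cannot be told apart. The spots are annotated with D. melanogaster genes, so a lower D. simulans level and weaker binding of a diverged D. simulans cDNA also cannot be told apart. Yolk, vitelline membrane and chorion genes, which would mark egg-producing females, had 0 members measured under a gene symbol, so the labelled sex was not checked against them.

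The labels do not name the channel in the numerator of the deposited ratio. Values are given as log2 of D. simulans over D. melanogaster with the ratio read as channel 1 over channel 2, a reading adopted with earlier results of these data known and not called likely here. In the other reading every sign below turns, whereas all sizes, all totals and the opposition between the 2 directions stay. "Higher" and "lower" refer to D. simulans in the adopted reading and are relative to the median position of each array.

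The 6 arrays held 4815 to 4946 values each. After turning to 1 direction, 5 of them correlated with each other across genes and positions at 0.64 to 0.96. Array 2, the 1 array with title number 6, correlated with the others at only 0.29 to 0.60. Its log2 ratios had an SD of 0.763, against 0.434 to 0.540 on the other 5 arrays. On the 3 same-RNA arrays, which hold 1 pool in either channel, the SD was 0.209 to 0.215. Array 2 was wider on both sides and most at the upper end. Its 99th percentile was 2.64, against 1.03 to 1.28 on the other 5, and its 5th percentile was -1.01, against -0.90 to -0.72. Its 1st percentile of -1.51 lay within their range of -1.69 to -1.42. The main results that rest on array 2 are therefore given with and without it.

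**Figure D1:**
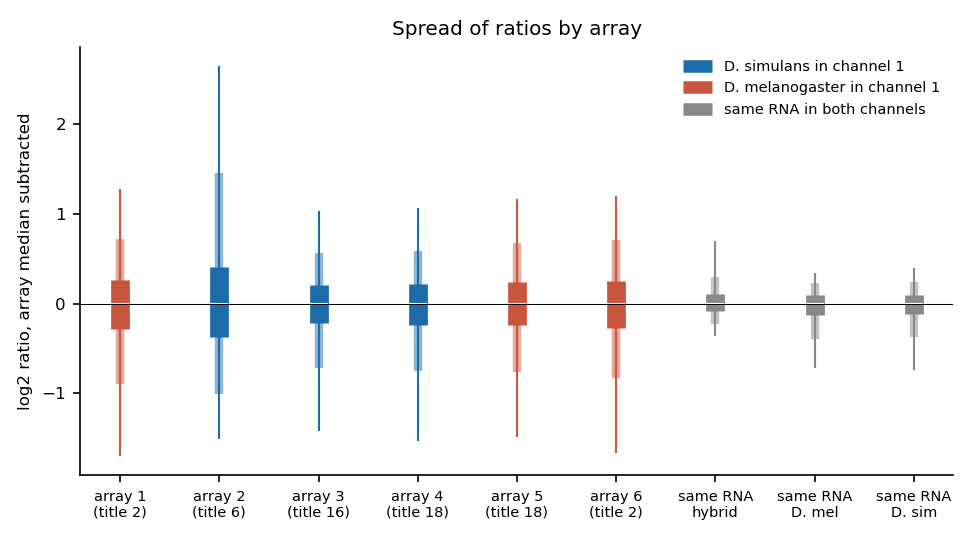
Log2 ratios by array after subtraction of the array median, turned to D. simulans over D. melanogaster for the 6 species arrays. Thick bars span the 25th to 75th percentile, pale bars the 5th to 95th and thin lines the 1st to 99th. Array 2 reaches 2.64 at its 99th percentile, and the same-RNA arrays stay within -0.739 and 0.692 over that span.

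Transcript levels differed between the parental species for many genes, mostly by a small amount. Of 4807 genes and unnamed positions tested, 2033 (42.3%) passed an adjusted p of 0.05 in limma's moderated test, 967 higher (20.1%) and 1066 lower (22.2%) in D. simulans. The median absolute log2 difference was 0.22 over all that were tested and 0.40 (1.32-fold) over those that passed, of which 1515 were under 1.5-fold. Among those that passed, 169 (3.52%) were at 2-fold or more, 55 higher (1.14%) and 114 lower (2.37%). Of these, 21 reached 4-fold (6 higher, 15 lower). Values ranged from -3.45 to 3.07, and both extremes were positions without a gene symbol. The lower side thus held 67.5% of the differences of 2-fold or more. With the deposited array medians kept, 1022 were higher and 1002 lower.

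The same-RNA arrays gave the background of such ratios: 0.311% to 0.629% of their positions exceeded 2-fold, against 3.46% to 6.02% on 5 species arrays and 14.6% on array 2. Of 4433 genes and positions with values on all 6 arrays, 1886 (42.5%) had the same turned sign on each, 886 positive and 1000 negative. Among the 2033 that passed, array 2 had the opposite sign to the fitted difference for 166 (8.29% of its values) and each other array for 20 to 46. Without array 2, 2804 (58.3%) passed, 1420 higher and 1384 lower. Without array 6, 1349 passed, 612 higher. The number at 2-fold or more moved little, between 166 and 177 over the 6 fits that leave out 1 array. The channel term, which takes up any constant offset between the channels of a gene, passed for 0 of 4807 (0%) in limma's test, with 550 at an unadjusted p under 0.05, a median absolute size of 0.085 and a largest size of 1.07.

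**Figure D2:**
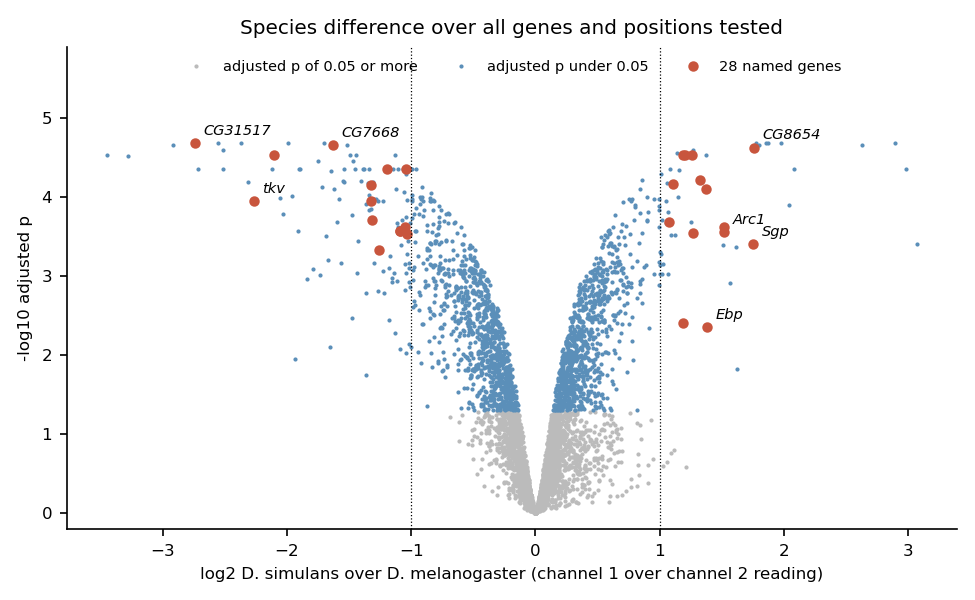
Species difference (log2, horizontal) against -log10 of limma's adjusted p (vertical) for all 4807 genes and positions, with the 28 named genes in red and dotted lines at 2-fold. Of the 169 that passed at 2-fold or more, 114 lie on the left and 55 on the right.

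Among the 1397 named genes tested, 566 passed (40.5%), 261 higher (18.7%) and 305 lower (21.8%). The median absolute log2 difference of named genes was 0.19. At 2-fold or more, 34 named genes passed, 14 higher and 20 lower, and the 4 that exceeded 4-fold (CG31517, tkv, CG4757 and c(3)G) were all lower. Named genes that passed with values and 1 sign on all 6 arrays numbered 458, 202 higher and 256 lower. The 14 largest of these in each direction are described next. They passed without any 1 of the 6 arrays. That their sign was the same on each array, and so in each set of title numbers, follows from how they were chosen.

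Genes with less signal from D. simulans RNA were led by CG31517 on chromosome arm 3R. Its lowest, median and highest array value was -3.05, -2.83 and -2.26 on the log2 scale. The fitted difference was -2.74 ± 0.069 (SE, n = 6 arrays, 6.69-fold, adjusted p = 2.08e-05 in limma). Every array thus lay far outside the largest same-RNA value of this gene, 0.42. Next came tkv (CG14026), the type I receptor through which cells receive BMP signals such as Dpp, with -2.61, -2.37 and -1.44. Its fitted difference was -2.27 ± 0.14 (4.82-fold, adjusted p = 0.000112), and array 3 alone lay above -2.2. CG4757 had -2.41, -2.13 and -1.69 and a fitted -2.10 ± 0.086 (4.30-fold).

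The 6 values of CG7668 lay between -1.73 and -1.47, with a fitted -1.63 ± 0.055 (3.10-fold). CG17450 on the X and CG14005 on 2L both stood at -1.32, with SEs of 0.083 and 0.071. The gene gkt (CG8825) encodes a tyrosyl-DNA phosphodiesterase, an enzyme that frees DNA ends from stalled topoisomerase. Its array values ran from -1.74 to -1.05 around a fitted -1.31 ± 0.094 (2.48-fold). CG14969 stood at -1.26 ± 0.11 and at -1.13 without array 2, which held its lowest value.

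The remaining 6 of the 14 lay close to 2-fold. CG8321 was lower at -1.19 ± 0.055. Muc68D, a mucin gene, had -1.26, -1.15 and -0.66 for its lowest, median and highest array and a fitted -1.09 ± 0.084. Phf7, which encodes a reader of histone marks known from the male germline, had -1.34, -1.10 and -0.81 and a fitted -1.09 ± 0.084. C1GalTA, a galactosyltransferase gene that builds core 1 O-glycans, stood at -1.05 ± 0.079. APC7 belongs to the anaphase-promoting complex, which ends mitosis by marking proteins for degradation. It stood at -1.04 ± 0.048 with all arrays between -1.16 and -0.94. CG4287 stood at -1.04 ± 0.083. The next gene by size was at -1.02. Of the 14, 3 were X-linked (CG17450, Phf7 and APC7) and 1 was on 2R, where 256 and 257 of all 1397 named genes tested lay. The synaptonemal complex gene c(3)G had a value on 5 arrays only, from -2.46 to -1.49, and its fitted difference of -2.03 ± 0.11 (4.09-fold) exceeded all but 3 of the 14.

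**Figure D3:**
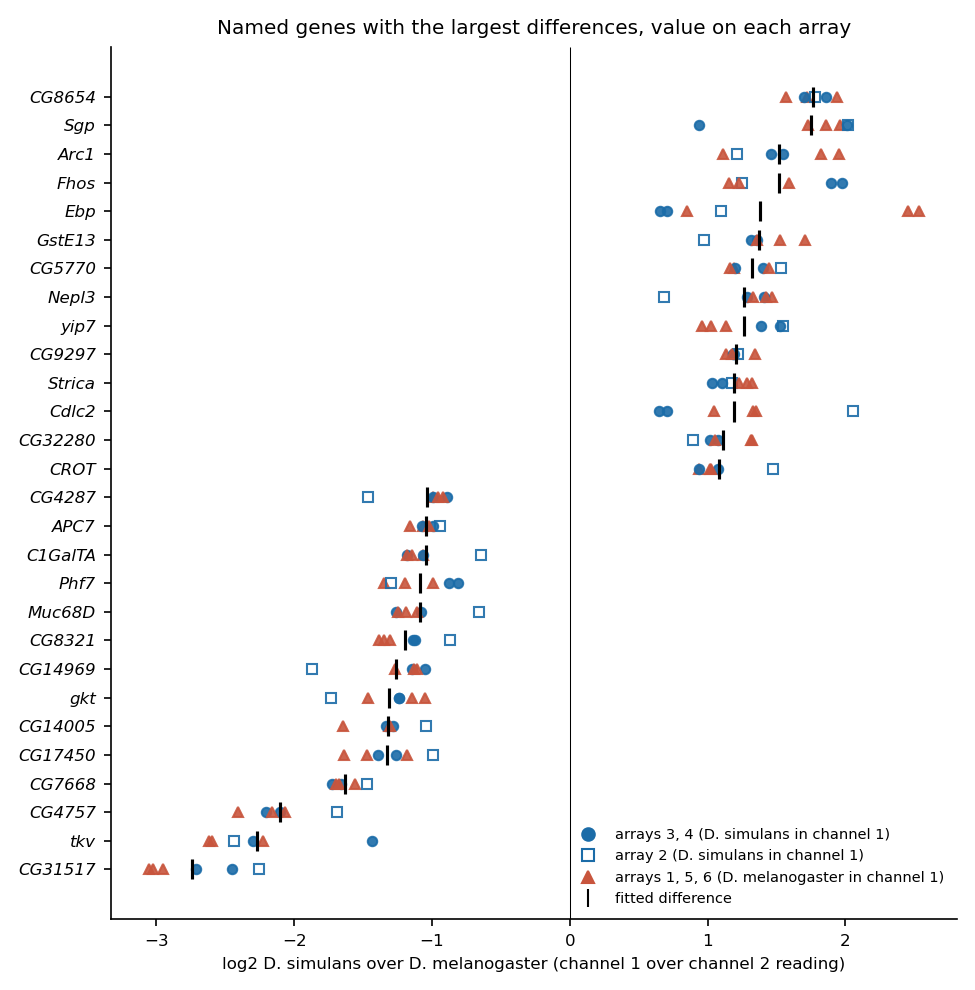
Log2 of D. simulans over D. melanogaster on each of the 6 arrays for the 14 named genes with the largest differences in each direction, with the fitted difference as a black tick. Every point lies on its gene's side of 0 because the genes were chosen for 1 sign on all 6 arrays. The 6 values of Ebp spread from 0.66 to 2.53, those of CG9297 from 1.13 to 1.34.

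Genes with more signal from D. simulans RNA were led by CG8654 on 2R. Its lowest, median and highest array value was 1.57, 1.75 and 1.94, and the fitted difference was 1.76 ± 0.063 (3.39-fold, adjusted p = 2.37e-05 in limma). All 6 arrays agreed closely, and the largest same-RNA value was 0.09. Sgp (CG13091) had 0.94, 1.91 and 2.02, so that 5 arrays lay near the median and array 4 at less than 1. Its fitted difference was 1.75 ± 0.15 (3.37-fold). Arc1, whose product assembles into virus-like capsids in neurons, had 1.11, 1.504 and 1.95 and a fitted 1.52 ± 0.12 (2.87-fold). Fhos, a formin gene that acts on actin filaments of muscle and other tissues, had 1.16, 1.42 and 1.98 and a fitted 1.52 ± 0.11 (2.86-fold). Fhos stood at 1.21 on the arrays with title numbers 2 and 6 and at 1.82 on those with 16 and 18. Fitted values by title number, here and below, come from fits without the channel term. Channel orientations are not balanced within either set, so such values mix title number and channel.

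Ebp (CG2668), named for the ejaculatory bulb of males, was the least even of the 14. Arrays 1 and 6, both of title number 2, gave 2.53 and 2.45, and the other 4 gave 0.66 to 1.09. The fitted difference was 1.38 ± 0.23 (adjusted p = 0.00439), with 2.03 on title numbers 2 and 6 and 0.74 on 16 and 18. Its largest value with the same RNA in both channels was 0.62 in size, the highest among the 28 genes. The detoxification gene GstE13, a glutathione transferase, had 0.97, 1.36 and 1.71 and a fitted 1.37 ± 0.076 (2.59-fold). CG5770 stood at 1.32 ± 0.068.

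A pair of peptidase genes was higher by nearly the same amount. Nepl3, a neprilysin-like metallopeptidase, had 0.68, 1.37 and 1.47 and a fitted 1.27 ± 0.10. The serine protease gene yip7 had 0.96, 1.26 and 1.55 and a fitted 1.26 ± 0.051. For Nepl3 only array 2 lay below 1.2.

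The other 5 of the 14 were between 2-fold and 2.4-fold. CG9297 stood at 1.21 ± 0.050 and the caspase gene Strica, a protease of programmed cell death, at 1.19 ± 0.047, with 1.03, 1.20 and 1.32 over the arrays. Cdlc2, a dynein light chain gene, had 0.65, 1.19 and 2.05 and a fitted 1.19 ± 0.19. It stood at 1.48 on title numbers 2 and 6, at 0.89 on 16 and 18, and at 0.96 without array 2. Its probe may also bind the similar transcript of ctp, which was lower at -0.77 ± 0.11. CG32280 stood at 1.11 ± 0.060, and CROT, which encodes a carnitine acyltransferase of peroxisomal fatty acid breakdown, at 1.08 ± 0.078. The next gene by size was at 0.99. Of these 14, 6 were on 2R and 0 on the X, against 257 and 256 of all 1397 named genes tested. No test of these counts was made.

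The arrays with hybrid RNA measured the same species difference a second time, as the gap between the hybrid's ratio to D. melanogaster and its ratio to D. simulans. These 12 arrays share no hybridisation with the 6 direct ones, but the same pools. All 28 genes had the direct sign there, and 26 passed. The exceptions were Ebp, at 0.30 ± 0.78 (adjusted p = 0.842) against 1.38 on the direct arrays, and APC7, at -0.85 ± 0.36 (adjusted p = 0.133) against -1.04. Without Ebp, the values of a gene differed by at most 0.26. CG31517 stood at -2.90 ± 0.21 through the hybrid, tkv at -2.35 ± 0.23, CG8654 at 1.59 ± 0.21 and Sgp at 1.89 ± 0.19. Over 4775 genes and positions the 2 estimates differed with an SD of 0.19 and by over 2-fold for 0.0838%. The hybrid arrays spread more, and only 795 (16.6%) passed on them, 340 higher and 455 lower.

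**Figure D4:**
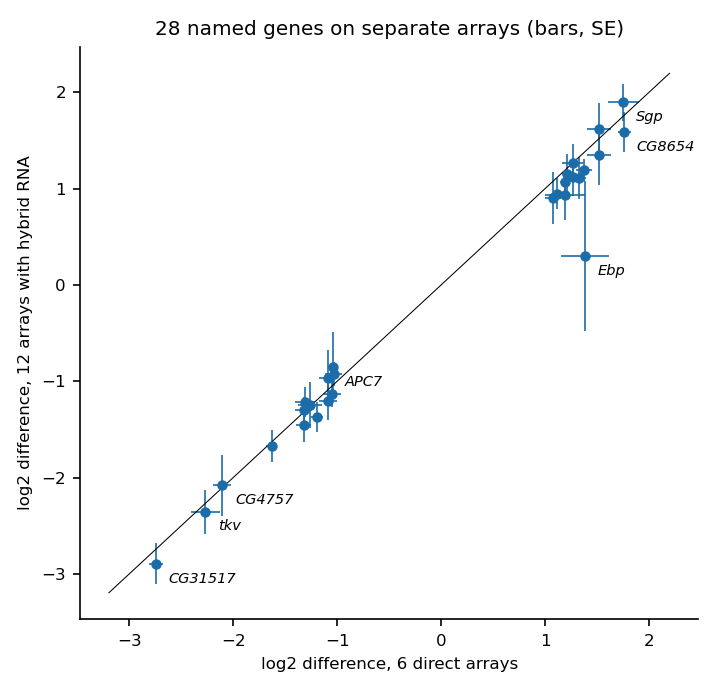
Species difference (log2) of the 28 named genes on the 6 direct arrays (horizontal) and on the 12 arrays with hybrid RNA (vertical), with bars for the SE and the line of equal values. Of the 28, 27 lie within 0.26 of the line and Ebp lies 1.08 below it.

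Gene groups were described by symbol lists, with the 40.5% of named genes that passed and the median of -0.00 over all named genes as the comparison. List counts without array 2 compare with the larger shares that passed in that fit. These were 58.3% of all genes and positions, 55.8% of named autosomal genes and 63.3% of named X-linked genes. Over all lists, 70 members passed on the direct arrays. On the hybrid arrays 67 of these had the same sign, 31 passed with it, and 12 were smaller by over 1.5 times. BigH1, Cyp1 and mud had the opposite sign there.

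Genes of meiotic recombination, chromosome cohesion and the meiotic cell cycle had 11 measured members, of which 5 were lower and 2 higher (median -0.40). Besides c(3)G and APC7, the lower members were pch2, an ATPase of the meiotic checkpoint, at -0.80 ± 0.096, mei-P26 at -0.50 ± 0.081 and the cohesion gene eco at -0.41. Higher were bora, an activator of Aurora A kinase, at 0.55 ± 0.077 and APC4, of the same complex as APC7, at 0.37. Of these 7, only c(3)G passed on the hybrid arrays, at -1.34. There pch2 stood at -0.45 (adjusted p = 0.315 in limma) and mei-P26 at -0.27 (adjusted p = 0.223).

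DNA replication genes had 7 members, of which 4 were lower and 0 higher (median -0.31). They were the polymerase delta subunit gene PolD2 at -0.65 ± 0.092, RnrL, of ribonucleotide reductase, at -0.62 ± 0.082, Ctf4 at -0.56 ± 0.065 and the polymerase epsilon gene PolE1 at -0.31 ± 0.079. PolE1 no longer passed without any 1 of arrays 1, 3, 4 and 6, at -0.31 to -0.27, and array 2 held its 1 positive value. All 4 had the same sign on the hybrid arrays, and 0 of 4 passed there in limma, with PolD2 at -0.37 (adjusted p = 0.477), RnrL at -0.45 (adjusted p = 0.600), Ctf4 at -0.58 (adjusted p = 0.137) and PolE1 at -0.60 (adjusted p = 0.236).

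Germline and oogenesis genes had 11 members, 5 lower and 2 higher (median -0.20). After Phf7, which is known from the male germline, Fs(2)Ket, the importin beta gene, stood at -0.66 ± 0.059. The germline linker histone gene BigH1 had -0.75, -0.64 and -0.14 over the arrays and a fitted -0.55 ± 0.087. On the hybrid arrays BigH1 stood at 0.10 ± 0.45, and with an SE that wide they cannot decide on a difference of the direct size. Of the 7 called members of this list, 1 passed on the hybrid arrays with its direct sign. The pore gene Nup154 was lower at -0.40, whereas fs(2)ltoPP43, at 0.42, and mats, a cofactor of the Warts growth kinase, at 0.17, were higher. Leaving out array 1, 3, 4, 5 or 6 ended the call of mats (0.14 to 0.17). The mitosis and spindle list had 13 members, 3 lower and 2 higher (median -0.00). Apart from the dynein light chain genes ctp and Cdlc2, it held the microtubule-destabilising stathmin gene stai at 0.52 ± 0.049, the spindle orientation gene mud at -0.23 and CycK, a cyclin of transcription rather than of mitosis, at -0.39. The call of mud was lost without array 1, 3, 4 or 6 (-0.24 to -0.19).

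Muscle genes had 8 measured members, 3 higher and 0 lower (median 0.10). Next to Fhos these were Strn-Mlck, a myosin light chain kinase gene of the sarcomere, at 0.99 ± 0.064 (array values 0.70 to 1.13), and up, the troponin T gene, at 0.50 ± 0.092. The gene up had 4 array values and did not pass without array 5 (0.45) or array 6 (0.54). The thick-filament gene Prm stood at 0.12 and did not pass. Of 12 genes of synapses and excitability, 2 were higher and 2 lower (median 0.18), and 4 higher and 2 lower without array 2. Besides Arc1 these were Snap29, a SNARE gene, at 0.33, the calcium-gated potassium channel gene SK at -0.18, and unc-13, a priming factor of synaptic vesicles, on chromosome 4. The unc-13 values were between -2.05 and -1.40 on 5 arrays and 0.47 on array 2. Its fitted difference was -1.37 ± 0.33 (adjusted p = 0.0178), and -1.77 without array 2. It did not pass without array 1, 3, 5 or 6 (-1.41 to -1.19). Snap29 did not without array 6 (0.32), nor SK without array 1, 3, 4, 5 or 6 (-0.20 to -0.16). The active zone gene Rim stood at 0.93 ± 0.32 and did not pass. Array 2 read 2.41, and the other 4 values of Rim lay between 0.41 and 0.98. Without array 2 Rim passed at 0.62.

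BMP, insulin and TOR signalling had 17 members, 5 higher and 2 lower (median 0.17), and 9 higher and 4 lower without array 2. The lowest was tkv. Of the other receptors measured, wit, a type II receptor, was higher at 0.61 ± 0.052, and sax, the other type I BMP receptor, stood at -0.07 and did not pass. The transducer of the BMP signal, Mad, stood at 0.26 and the ligand genes dpp and gbb at 0.18 and -0.19, none of which passed on all 6 arrays. Without array 2, Mad passed at 0.17 and gbb at -0.24. Pi3K59F, a class III phosphoinositide kinase gene, was higher at 0.68 ± 0.068, the TGF-beta ligand gene mav at 0.42 and Lst8, a part of TOR complexes, was lower at -0.40. Lst8 did not pass without array 1, 3, 5 or 6 (-0.45 to -0.36), nor mav without array 3 or 6 (0.42 and 0.47). The other 2 higher members were Smox, a TGF-beta transducer gene, at 0.19 and S6KL at 0.17. Both lost the call without array 3, 4, 5 or 6, and S6KL also without array 1 (0.15 to 0.19 over both genes). The activin-like ligand gene daw stood at 0.65 and passed only without array 2, at 0.40.

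Lipid and fat body genes had 17 members, 2 higher and 3 lower (median -0.06), and 4 higher and 5 lower without array 2. FASN1, fatty acid synthase, had 0.51 on array 2 and 0.86 to 1.15 on the others, with a fitted 0.89 ± 0.090 (1.86-fold). Agpat1 and Agpat2, acyltransferases of glycerolipid synthesis, went opposite ways at 0.63 ± 0.056 and -0.52 ± 0.054. Regucalcin, named for calcium binding, was lower at -0.59 ± 0.12 and Fatp1, a fatty acid transporter gene, at -0.46. Fatp1 did not pass without array 1 or array 6 (both -0.43). The lipoprotein gene apolpp stood at -0.14 and did not pass. Only 3 members of the list for cuticular hydrocarbon synthesis were measured. They were listed by symbol, and their role in that synthesis was not checked. FASN1 was higher, and the elongase gene bond and Cyp4g15, at -0.00 and 0.15, did not pass. Without array 2, Cyp4g15 stood at -0.00. Of 8 genes of energy metabolism, 2 were higher and 3 lower (median -0.22). The fructose-bisphosphatase gene fbp stood at -0.81 ± 0.11, Pfk, which catalyses the opposite step, at -0.49 ± 0.053 and the trehalase gene Treh at -0.34. Treh did not pass without array 1, 3, 4 or 6 (-0.39 to -0.30). Higher were the complex I gene ND-51 at 0.58 ± 0.10 and Glyp, glycogen phosphorylase, at 0.53 ± 0.078.

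**Figure D5:**
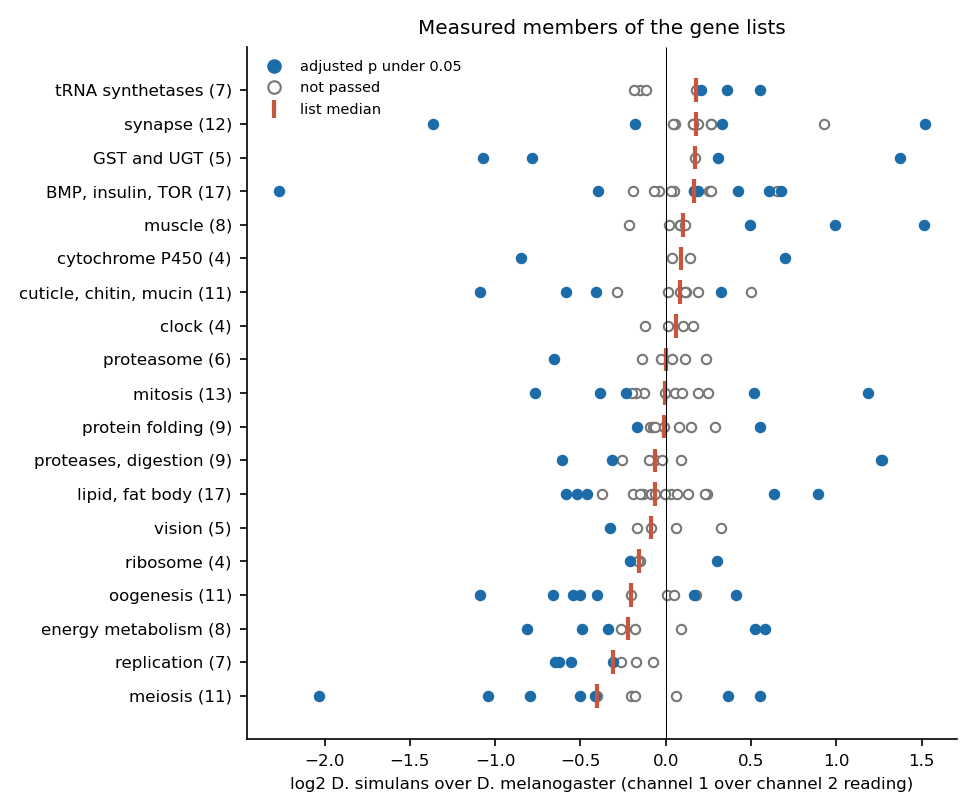
Species difference (log2) of the measured members of the 19 gene lists with at least 4 of them, with the number in brackets, filled points for genes that passed limma's adjusted p of 0.05 and red ticks for list medians. Medians run from -0.40 for the meiosis list to 0.18 for the tRNA synthetases.

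Genes of detoxification differed in both directions. Of 5 glutathione transferases and glucuronosyltransferases, 2 were higher, GstE13 and GstZ2 (0.31), and 2 lower, Ugt50B3 at -1.07 ± 0.059 on 5 arrays and Ugt35A1 at -0.78 ± 0.060 (median 0.17). GstE12 stood at 0.17 and passed only without array 2, at 0.24. Of 4 cytochrome P450 genes, Cyp4ac1 was higher at 0.70 ± 0.11 and Cyp12d1-p lower at -0.85 ± 0.050 (median 0.09). The Cyp12d1-p probe may also bind the near-identical copy Cyp12d1-d. Cyp6u1 stood at 0.04 and did not pass.

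Of 9 proteases and digestive enzymes, 2 were higher (yip7 and Nepl3) and 2 lower, Swim at -0.61 ± 0.055 and the cathepsin D gene cathD at -0.32 ± 0.047 (median -0.06). Cuticle, chitin and mucin genes had 11 members, 1 higher and 3 lower (median 0.09), and 3 and 3 without array 2. After Muc68D, the chitin-binding genes obst-A and obst-B were lower at -0.59 ± 0.079 and -0.41 ± 0.050, and TwdlW, of a cuticle protein family, was higher at 0.32. The chitinase gene Cht7 read 1.80 on array 2 and -0.06 to 0.61 on the others. It stood at 0.50 and passed only without array 2, at 0.19.

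The aminoacyl tRNA synthetase genes had 7 members, 3 higher and 0 lower (median 0.18): AsnRS at 0.55 ± 0.089, the mitochondrial LeuRS-m at 0.36 ± 0.10 and GlnRS at 0.21 ± 0.065. LeuRS-m did not pass without array 1 or 6 (0.34 and 0.33), nor GlnRS without array 1, 3, 4, 5 or 6 (0.17 to 0.24). Among 9 chaperone genes ERp60, a disulfide isomerase of the endoplasmic reticulum, was higher at 0.55 ± 0.046 and the cyclophilin gene Cyp1 lower at -0.17 ± 0.051 (median -0.01). Cyp1 did not pass without array 1, 3, 4, 5 or 6 (-0.18 to -0.14). Of 6 proteasome genes Prosbeta7 was lower at -0.66 ± 0.10 and the other 5 did not pass (median 0.00). Of 4 ribosomal protein genes, RpL32 was higher at 0.30 ± 0.056 and RpS12 lower at -0.21 ± 0.051 (median -0.16). RpL32, often used as a reference transcript, read 0.57 to 0.70 on the arrays with D. simulans in channel 1 and -0.15 to 0.13 on those with D. melanogaster there. Its channel term was 0.34, and without that term it did not pass. RpS12 did not pass without array 1, 4 or 6 (-0.20 to -0.19).

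Few sensory, clock and immune genes were measured. Of 5 vision genes, the lipase gene inaE was lower at -0.33 ± 0.10 (median -0.08). It passed by a small margin (adjusted p = 0.0432), with 5 arrays between -0.53 and -0.40 and array 2 at 0.27. It did not pass without array 1, 3, 4, 5 or 6 (-0.33 to -0.27) and stood at -0.44 without array 2. None of 4 clock genes (jet, cwo, slmb and Pdp1) passed in limma's test, with 0 at an unadjusted p under 0.05 and values from -0.12 to 0.16 (median 0.06). The virus-induced gene vir-1 was lower at -0.89 ± 0.10, with -1.502 and -1.28 on the arrays of title number 2 and -0.71 to -0.56 on the other 4. The receptor gene Pvr (-0.04) and the odorant-binding gene Obp19d (-0.11) did not pass. A further list joined genes named in hybrid incompatibility between these species with partners of such genes, so a member need not be an incompatibility gene itself. Of its 3 measured members, 1 was lower (BigH1, at -0.55) and 0 higher. The nucleoporin gene CG10198 stood at 0.01 and Su(var)3-3 at -0.03. The second passed only without array 2, at -0.29.

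Testis transcripts would mark male RNA in a female pool. Under a symbol, 3 were measured: ocn at 0.27, janB at 0.47 and Hsp60B at 0.29, none of which passed on 6 arrays. All 3 were highest on array 2, at 1.93, 1.82 and 1.00. Without array 2, janB stood at 0.13 and Hsp60B at 0.12, and neither passed. On arrays 3 and 4, ocn read -0.52 and -0.50, and janB read -0.21 on each. The gene ocn had 9 probes, of which 8 gave 0.17 to 0.84 and 1 gave -1.29 ± 0.060 with all 6 arrays between -1.59 and -1.07. On array 2 the 8 probes read 1.64 to 3.12. Without array 2 the mean over its probes was -0.13 (adjusted p = 0.0315 in limma). That mean includes the 1 probe at -1.29, and no fit was made without this probe. The 8 probes of janB gave 0.17 to 0.74, none of which passed, and read 0.72 to 3.06 on array 2. Ebp, named for the ejaculatory bulb of males, is not among these testis transcripts. It passed on 6 arrays at 1.38 ± 0.23, and stood at 0.30 ± 0.78 on the hybrid arrays without passing. The part of male RNA in any of these values was not tested. Over the 68 genes with at least 2 tested probes, the lowest and highest probe differed by a median of 0.17 and by over 0.5 for 7 genes. In 17 genes probes had opposite signs, but in 0 genes did probes pass in both directions in limma's test.

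The chromosomes were compared over the named genes. Of 256 named X-linked genes, 75 were lower (29.3%) and 50 higher (19.5%), against 230 (20.2%) and 211 (18.5%) of 1141 autosomal ones. The arms 2L, 2R, 3L and 3R ranged from 19.1% to 22.6% lower and from 17.6% to 20.2% higher, and 3 of 16 genes on chromosome 4 were lower and 4 higher. The median log2 difference was -0.05 on the X and 0.01 on the autosomes. At 2-fold or more, 5 of the 256 X-linked genes were lower and 0 higher, against 15 and 14 of the 1141 autosomal ones. With the deposited array medians kept, these counts were 5 and 1 on the X and 14 and 15 on the autosomes. Without array 2, 35.5% of X-linked and 27.0% of autosomal genes were lower, and with the deposited array medians 28.9% and 18.8%. Genes are not independent of each other, and no test of the X against the autosomes was made.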

How the data were processed

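Females of both species were compared on 2-colour spotted cDNA arrays. The authors deposited 1 linear ratio per probe position and array. Per the labels, the cDNA carried amino-allyl dUTP coupled to Cy3 or Cy5; for the numerator, scanner, background correction, normalization and genome build, the sources used here give nothing. The number of arrays limits the precision. Of 6101 positions, 4956 held a value on any array; 1943 had 1 gene symbol in the platform annotation, 67 several and 4091 none. Names and chromosome arms follow the Release 6 plus ISO1 MT gene table, which held all 1943. Arrays are numbered in order of deposition; their sample titles carry a number whose meaning is not stated.

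Ratios were put on the log2 scale, each array's median was subtracted, probes of a gene were averaged and values were turned by the channel labels. Genes and positions needed 4 of 6 values and 1 per orientation; 1.44% of values were missing and not imputed. The 6 arrays were fitted in limma 3.58.1 (R 4.3.3) with a species and a channel coefficient, a two-sided moderated test (at most 4 residual degrees of freedom plus 2.27 from the prior) and Benjamini-Hochberg adjustment over all 4807. The script was tested on simulated data. Alternatives varied centring, scaling, weights, channel term, filter, arrays and probes. The members and the 25 gene lists were chosen with earlier results of these data known. Named were the 14 largest differences per direction (called, with 1 sign on 6 arrays), up to 4 members per list (all of lists with up to 6), Sgp, tkv, Arc1 and BigH1, and genes with opposed probes; other list members were named after their values were seen. No sequence was printed because the gene tables used here hold none.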

Additional observations from a re-analysis of the deposited data

Results flagged for a closer look

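Single arrays that stood apart from the other values of a gene were found with Dixon's test at its 95% level. It flagged 22 of the 105 named genes that had 5 or 6 values. The test's rate of 1 in 20 holds for independent values of equal spread. The arrays differ in spread and some share a title number, so that rate is no measure of an excess here. Of the 22, 16 had array 2 as the separate value, 4 array 5 and 1 each arrays 3 and 4. The SD of log2 ratios itself stood apart on array 2, at 0.763 against a median of 0.494 over the 6 arrays.

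On array 2, high values stood apart for Rim (2.41), ocn (1.93), daw (1.82), Cht7 (1.80), CROT (1.48), Su(var)3-3 (1.23) and Cyp4g15 (0.97). Among lower genes, array 2 read less negative for Muc68D (-0.66) and C1GalTA (-0.64), positive for unc-13 (0.47) and inaE (0.27), and more negative for CG14969 (-1.87), CG4287 (-1.46) and ctp (-1.37). It also gave the separate value for Nepl3 (0.68) and Pdp1 (-0.73).

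Array 5 stood apart for kon (0.13), bora (0.20), Droj2 (-0.12) and jet (0.49), array 3 for tkv (-1.44) and array 4 for Sgp (0.94). With those arrays in, kon and Droj2 did not pass; without array 5 they passed at -0.29 and 0.20. For tkv, Sgp, Muc68D, C1GalTA, CG14969, CG4287, Nepl3, CROT, bora and ctp the call held without any 1 array.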

How the results depend on the processing

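The number of genes and positions that differed stayed within 1.5 times of 2033 with deposited medians (2024), a common spread (2264), no channel term (1927), other filters (1996 and 2043), all 18 arrays (2217), a random block on the title number (2426), title numbers 16 and 18 alone (2361) and every probe kept apart (2042). With array weights, whose estimation stopped before convergence, it was 3692 (1875 higher, 1817 lower). On the 12 arrays with hybrid RNA it was 795 (340 and 455), on title numbers 2 and 6 alone 506 (207 and 299), and against 1.5-fold 178 (59 and 119). Leaving out 1 array gave 1349 to 2804 (612 to 1420 higher, 737 to 1384 lower). Reading channel 2 over channel 1 swaps 967 and 1066. The 1.5-fold test by design asks for a larger difference. Both title number sets hold fewer arrays and were fitted without the channel term, and they gave 506 and 2361. For the other changes and for these sets the cause was not tested. Of the 28 genes named by size, 2 did not pass on the hybrid arrays and 2 (Ebp and Cdlc2) against 1.5-fold; all passed under the other settings run. Of all 74 named genes that passed, 24 lost the call with the same sign on the hybrid arrays, 21 on title numbers 2 and 6 alone, 44 against 1.5-fold and 0 to 9 without 1 array. Where the value passed in at least 1 of the fits compared, directions that turned were BigH1 (0.10) and Cyp1 (0.19) on the hybrid arrays, Prosbeta4R2 on title numbers 16 and 18 (-0.76, from an uncalled 0.24) and ocn without array 2 (-0.13; -0.13 to 0.48 over the 6 fits that leave out 1 array). The ocn value is a mean over 9 probes, 1 of which gave -1.29 on all 6 arrays together. Of the 32 named genes that did not pass, 17 (ocn and Prosbeta4R2 among them) changed sign in some setting with neither value passing, at no more than 0.31 in size. With all 18 arrays BigH1 (-0.33), RnrL (-0.57) and Cyp1 (-0.05) did not pass. Settings without array 2 for lists and chromosomes were chosen after seeing the data. Both species share every array, so each ratio already compares them within an array. No paired analysis was possible across arrays by replicate number because the replicate numbers give only the order of deposition. The title number, which joins arrays 1 and 6 and arrays 4 and 5, entered as the random block above (correlation 0.764). Technical repeats of 1 pool per species limit every result to these pools.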
